A study of Mus musculus with 22 samples.

Results

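The 10 genes followed here belong to the NOD-like receptor and inflammasome pathway, measured in sorted mouse lung epithelial cells (ECs): Nod1, Nod2, Nlrp3, Nlrc4, Naip2, Naip5, Pycard, Casp1, Ripk2 and Gsdmd. They are listed by name, with no threshold on a measured value, and they are 10 of the 54373 genes counted, of which 21793 are protein-coding. RNA was sequenced from ECs sorted as live singlets that carried EpCAM and lacked CD45 and CD31. The ECs came from wildtype (WT) mice and from mice that lack the aryl hydrocarbon receptor (AhR-/-) or cytochrome P450 1B1 (CYP1B1-/-). Both knockouts are germline deletions, so every cell of the mouse carries them, and both lines were backcrossed to C57BL/6, the background of the WT. The first table held naive mice at steady state, with 4 WT, 3 AhR-/- and 3 CYP1B1-/- libraries. The second held mice sensitized and challenged intranasally with house dust mite extract (HDM) of Dermatophagoides farinae, with 4 libraries per genotype. The labels call the first group naive, and a group given the carrier alone was not analysed here. The study used mice of either sex, and the labels do not say whether libraries of a group came from separate mice, so the p-values below measure the spread between these libraries.

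NOD-like receptors are cytosolic sensors of microbial products and of cell damage. NOD1 and NOD2 bind fragments of bacterial peptidoglycan and signal through the kinase RIPK2 to NF-kappaB, whereas NLRP3 and the NAIP-NLRC4 pair assemble inflammasomes. An inflammasome recruits the adaptor ASC, which Pycard encodes, and activates caspase-1, which matures IL-1beta and IL-18 and cuts gasdermin D into a pore that can end in pyroptosis. In the lung these sensors are best known from macrophages and other myeloid cells, and airway and alveolar ECs are known to use part of the pathway.

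The libraries differed in ways that touch every result below. Total counts lay between 9654825 and 17878442, but in the HDM libraries the predicted gene Gm10800 took 0.00819 to 71.9% of them. Counts on protein-coding genes without such dominant predicted genes ranged from 1180756 to 16447855 in the HDM libraries and from 7218689 to 14120921 in the naive ones, and 3 counts corresponded to 0.113 to 1.37 CPM and to 0.126 to 0.203 CPM (CPM, counts scaled to a common library size). The AhR-/- HDM replicates 3 and 4 held 379 and 1081 counts on 4 Y-linked genes, the other 10 HDM libraries 0 to 7, and the 10 naive libraries 939 to 4655. Ahr was counted at 13.1 to 26.4 CPM in the AhR-/- HDM libraries and at 9.68 to 21.04 in WT, and Cyp1b1 at 5.14 to 13.7 CPM in the CYP1B1-/- HDM libraries and at 0.941 to 2.33 in WT. The targeted genes thus showed no loss of reads, and counts per gene do not show which exons the reads came from, so genotypes are named as the libraries are labelled. Ptprc, which encodes the CD45 that the sort excluded, was counted at 1.84 to 55.2 CPM in the naive and at 14.8 to 710.3 CPM in the HDM libraries. Epcam was counted at 68.3 to 321.7 CPM in the HDM libraries. The summed CPM of 7 epithelial markers, Epcam among them, was 2733 to 4072 in the naive and 610 to 2375 in the HDM libraries.

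On GRCm38, Nod1 (ENSMUSG00000038058) lies at chr6:54923949-54972612, Nod2 (ENSMUSG00000055994) at chr8:88647315-88688474 and Ripk2 (ENSMUSG00000041135) at chr4:16122733-16163647. Nlrp3 (ENSMUSG00000032691) lies at chr11:59541568-59566956 and Nlrc4 (ENSMUSG00000039193) at chr17:74425438-74459142. Naip2 (ENSMUSG00000078945) at chr13:100144063-100202092 and Naip5 (ENSMUSG00000071203) at chr13:100211739-100246323 are neighbours on the minus strand. Pycard (ENSMUSG00000030793) lies at chr7:127989708-127993867, Casp1 (ENSMUSG00000025888) at chr9:5298517-5307265 and Gsdmd (ENSMUSG00000022575) at chr15:75862327-75867408. All 10 are protein-coding, and the counts are reads over their exons, which together span between 1497 bases in Casp1 and 5204 in Naip5. The Naip genes are near copies of each other: 19.1% of the 50-base stretches of Naip2 and 36.9% of those of Naip5 also occur in other genes, mostly in other Naip genes, so reads could be split between them and these counts are uncertain. Pycard is uncertain over a part of its exons, since 485 bases of them, 12.8%, overlap Gm45205 on the opposite strand, which itself held 0 to 19 counts. Of the other 7 genes at most 1.09% of such stretches were shared.

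The promoter windows of Naip2 and Naip5 are shown because the copies share sequence in front of the gene too. RefSeq windows on GRCm38.p6 from 250 bases before to 50 after the start were matched for 8 of the 10 genes, not for Ripk2 and Gsdmd, and aligned over their whole length those of Naip2 and Naip5 were 61.4% identical. The 250 bases before the start are printed 5′ to 3′, for Naip2 chr13:100202123-100202372 and for Naip5 chr13:100247337-100247586, both on the minus strand. RefSeq starts differ from those of the counted genes. The Naip5 window lies wholly upstream of the counted gene, which starts at chr13:100246323. Capitals mark the runs of at least 12 bases found in both, 2 runs with 57 bases in all, the longer 34 bases long and close to the start.
Naip2: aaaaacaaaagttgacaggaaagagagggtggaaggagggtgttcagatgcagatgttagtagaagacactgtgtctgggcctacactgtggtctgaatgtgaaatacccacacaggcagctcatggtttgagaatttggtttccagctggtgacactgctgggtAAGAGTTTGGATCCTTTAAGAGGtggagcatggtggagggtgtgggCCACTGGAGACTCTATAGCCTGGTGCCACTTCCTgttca
Naip5: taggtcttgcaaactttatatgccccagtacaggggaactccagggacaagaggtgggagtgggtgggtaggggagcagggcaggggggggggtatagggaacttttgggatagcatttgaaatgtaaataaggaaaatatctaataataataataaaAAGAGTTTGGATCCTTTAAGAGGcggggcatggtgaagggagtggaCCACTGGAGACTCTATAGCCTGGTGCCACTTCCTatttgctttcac

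In all, 3 motifs were searched on both strands of the windows, none of which contains another. The core of the AhR element, GCGTG, was found in 1 of the 10 windows of these genes, the second start of Nod1, at position -217 from it, and in 32.4% of all 32851 windows. The NF-kappaB element (GGGA, any base, TTTCC) was found in 0 of the 10 and in 0.411% of all, and the interferon-stimulated response element (GAAA, any 2 bases, GAAA) in 0 of the 10 and in 3.44% of all. The Nod1 window is shown as the only match to the AhR core, at chr6:54971662-54971911 on the minus strand, with the core in capitals.
Nod1: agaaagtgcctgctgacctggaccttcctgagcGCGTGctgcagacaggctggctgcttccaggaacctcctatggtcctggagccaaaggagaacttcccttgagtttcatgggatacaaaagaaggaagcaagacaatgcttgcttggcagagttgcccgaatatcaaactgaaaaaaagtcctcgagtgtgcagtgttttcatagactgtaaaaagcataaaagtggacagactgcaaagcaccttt

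At steady state the pathway was uneven in ECs. Levels were compared between genes as CPM per kilobase of exon. Exon lengths join all transcripts of a gene and can exceed that of a single transcript, so the order of genes is uncertain. For Pycard the length was 3800 bases from 2 transcripts, nearly the whole gene, and its value per kb may be too low. In WT, Ripk2, the kinase under NOD1 and NOD2, was highest at 10.0 ± 2.25 CPM per kb (SD, n = 4), and Gsdmd, the pore-forming substrate of caspase-1, followed at 6.04 ± 0.589. Nod1 was at 2.52 ± 0.474 and Pycard at 1.09 ± 0.396 CPM per kb. The other 6 genes were lower, with Casp1 at 0.536 ± 0.507, Nlrc4 at 0.456 ± 0.136, Naip2 at 0.169 ± 0.148, Naip5 at 0.153 ± 0.0851, Nlrp3 at 0.103 ± 0.0402 and Nod2 at 0.0661 ± 0.0242 CPM per kb. The 4 WT libraries of Ripk2, Gsdmd, Nod1 and Pycard did not overlap with each other in this order, whereas from Pycard downwards each gene overlapped with the next. Without WT replicate 1, the naive library with the most Ptprc, Casp1 was at 0.296 ± 0.197 and Naip2 at 0.1003 ± 0.0671 CPM per kb (SD, n = 3), below Nlrc4 at 0.460 ± 0.166 and Naip5 at 0.115 ± 0.0493. Nod2, Nlrp3 and Casp1 were at 2 to 30 counts in every naive library and stayed under the filter on low counts, which requires about 10 counts in as many libraries as the smallest group has.

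The steady-state comparison asks whether loss of AhR or of CYP1B1 changed these genes before allergen. Of the 7 members that passed the filter, 0 passed the test in AhR-/- against WT, where 0% of the 15547 genes tested were called and 0 members and 1.69% of genes had an unadjusted p under 0.05 (edgeR's quasi-likelihood test). In CYP1B1-/- against WT, 0 of 7 passed beside 0.0129% of all genes, and in AhR-/- against CYP1B1-/- 0 of 7 beside 0.00643%, with 1 and 0 members at an unadjusted p under 0.05 beside 5.80% and 4.23% of all genes. DESeq2, limma voom and edgeR's likelihood ratio test also called 0 members in all 3 comparisons. For Nlrc4, the scaffold of the NAIP inflammasome, the 4 WT values were 2.13, 2.77, 2.57 and 1.30 CPM, and the CYP1B1-/- values 1.51, 1.07 and 1.23, with a log2 fold change of -0.76 ± 0.33 (SE; unadjusted p = 0.0428, adjusted p = 0.822 in edgeR). The groups overlapped for Nlrc4, as they did for all 7 members tested in the 3 comparisons, while among all genes 2.51% lay wholly above and 1.86% wholly below in AhR-/- against WT, 1.47% and 1.63% in CYP1B1-/- against WT, and 7.61% and 4.44% in AhR-/- against CYP1B1-/-. Gsdmd was the most even, at 12.2 to 16.3 CPM over the 10 naive libraries, with log2 fold changes of -0.04 ± 0.15 in AhR-/- and 0.03 ± 0.15 in CYP1B1-/- (SE).

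After HDM, 5 of the 10 members were lower in the AhR-/- than in the WT libraries and 0 were higher. These were Nod2, Nlrc4, Naip2, Naip5 and Gsdmd, with log2 fold changes between -2.52 and -1.42 and adjusted p between 0.0261 and 0.0351 (edgeR's quasi-likelihood test). Of all 14161 genes tested, 22.1% were called, 12.9% as lower and 9.22% as higher. At an unadjusted p under 0.05 there were 7 members and 38.8% of all genes. The median log2 fold change was -1.45 over the 10 members and -0.0017 over all genes tested. Casp1 at -1.70 ± 0.70, Pycard at -1.13 ± 0.45, Nlrp3 at -0.98 ± 0.51, Nod1 at -0.11 ± 0.40 and Ripk2 at 0.49 ± 0.23 (log2 fold change, SE) did not pass the test, with adjusted p of 0.0917, 0.0855, 0.171, 0.878 and 0.139. Every AhR-/- library lay below every WT library for Nod2, Nlrp3, Nlrc4 and Gsdmd, 4 members beside 9.46% of all genes, and above every WT library for Ripk2, 1 member beside 9.12%. In these bulk samples, fewer cells of a type and less RNA per cell cannot be told apart.

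The 5 calls, like those over all genes, depended on single libraries. Without AhR-/- replicate 1, 3 or 4 or WT replicate 3 or 4, 0 members passed, as did 0 of all genes tested. Without WT replicate 1 the members left were Nod2 alone, beside 885 of 14437 genes. Without AhR-/- replicate 2 there were 4 members beside 4137 of 14284 genes, and without WT replicate 2 there were 6 beside 3366 of 14956. With the mean of 20 hematopoietic markers as a covariate 0 members passed and the 5 lay between -1.16 and -0.49, with adjusted p of 0.499 to 0.668 in edgeR; these markers moved with the calls, 20 of 20 having a log2 fold change below 0, with a median of -2.45. In the other 19 alternatives the 5 lay between -3.22 and -1.07, with adjusted p between 0.000504 and 0.239 over edgeR, DESeq2 and limma. Without AhR-/- replicates 3 and 4 together, the libraries with Y-linked reads, 0 members passed and the 5 lay between -2.14 and -1.09, with adjusted p of 0.202 to 0.239 from edgeR.

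**Figure D1:**
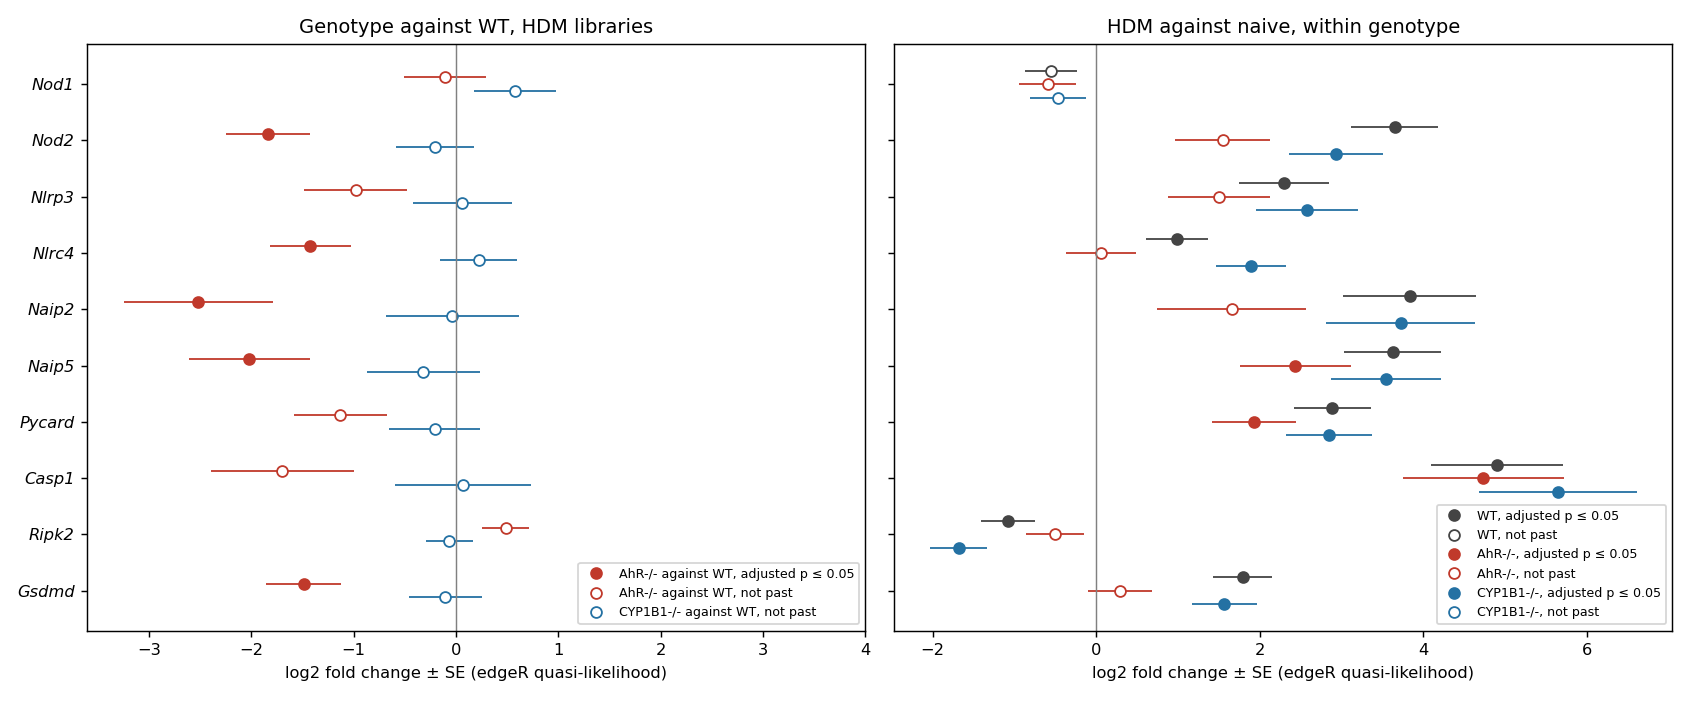
Log2 fold change with its standard error (horizontal axis) for each of the 10 genes (rows); left, AhR-/- and CYP1B1-/- against WT in the HDM libraries, right, HDM against naive libraries within each genotype, filled points having an adjusted p of at most 0.05. On the left, 5 AhR-/- points are filled, all below 0, and 0 CYP1B1-/- points; on the right, Casp1 lies farthest from 0 in each genotype.

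CYP1B1-/- was compared with the same WT HDM libraries. Here 0 of the 10 members passed the test and 0% of the 14161 genes did, while 0 members and 1.65% of all genes had an unadjusted p under 0.05. The log2 fold changes lay between -0.32 for Naip5 and 0.57 for Nod1, with standard errors of 0.23 to 0.67, and the groups overlapped for all 10, beside 0.459% of all genes wholly above and 0.177% wholly below. DESeq2, limma voom and edgeR's likelihood ratio test also called 0 members.

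Direct comparison of AhR-/- with CYP1B1-/- after HDM left 0 of the 10 members past the threshold in edgeR's quasi-likelihood test, beside 0.00706% of all genes. Other tools called more members and more of all 14161 genes: 5 members and 2458 genes in edgeR's likelihood ratio test, 6 and 2906 in DESeq2, and 7 and 4303 in limma voom. At an unadjusted p under 0.05 there were 7 members and 29.9% of all genes, of which Nod2, Nlrc4, Naip2, Naip5, Casp1 and Gsdmd had a log2 fold change below 0 and Ripk2 was at 0.55 ± 0.23 (SE). The lowest adjusted p was 0.0638, for Nod2 at -1.63 ± 0.41, Nlrc4 at -1.65 ± 0.40 and Gsdmd at -1.38 ± 0.37 (log2 fold change, SE; edgeR's quasi-likelihood test). Nlrc4 was the 1 member with every AhR-/- library below every CYP1B1-/- library, beside 1.58% of all genes, and 0 members lay wholly above, beside 5.01%. Without CYP1B1-/- replicate 2, the library with the fewest counts in its group, 6 members and 3098 of 14965 genes passed, and without AhR-/- replicate 2, 4 members and 2683 of 14284 genes did.

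HDM libraries were then compared with naive libraries of the same genotype. State and sequencing table coincide, so a change with HDM and a difference between the runs cannot be told apart. Y-linked reads split by state as well. The 10 naive libraries held 939 to 4655 counts on 4 Y-linked genes. The HDM libraries other than AhR-/- replicates 3 and 4 held 0 to 7. In WT and CYP1B1-/- a change with HDM thus cannot be told apart from a difference in sex either. The summed CPM of the 20 hematopoietic markers also differed, from 121 to 522 in the naive and 3240 to 10604 in the HDM libraries of WT, and with their mean as a covariate 0 members passed in any genotype. In WT, 8 members were higher after HDM and 1 was lower, beside 38.4% of the 16639 genes tested, 19.0% higher and 19.4% lower. In CYP1B1-/- 8 were higher and 1 lower, beside 33.4%, 15.5% and 17.9%. In AhR-/- 3 were higher, Casp1, Naip5 and Pycard, and 0 lower, beside 20.6%, 10.6% and 10.1%. Nod2, Nlrp3 and Casp1 were under the filter in the naive table and passed that of the joint fit through the HDM libraries, where they were high, so their state changes below are conditional on that. With no filter on low counts, all 3 were called higher in WT and CYP1B1-/-, and Casp1 in AhR-/-, as with it (edgeR). The other 7 members gave 5 higher and 1 lower in WT, 5 and 1 in CYP1B1-/-, and 2 and 0 in AhR-/-. The median log2 fold change of all 10 was 2.59 in WT, 2.71 in CYP1B1-/- and 1.53 in AhR-/-, and that of all genes -0.11, -0.02 and -0.05. The libraries of the states did not overlap for 9 members in WT, 8 with HDM above (18.9% of all genes) and 1 below (20.1%), for 6 above and 1 below in CYP1B1-/- (16.3% and 14.4%), and for 3 above and 0 below in AhR-/- (13.8% and 20.9%).

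Whether the state effect itself differed between genotypes was tested as an interaction. Y-linked reads followed state in WT, whereas a part of the AhR-/- HDM libraries held them. The AhR-/- interaction thus cannot be told apart from a difference in sex. Of the 10 members, 0 passed for AhR-/- against WT and 0 for CYP1B1-/- against WT, as 0% of all genes did in each. For AhR-/-, 2 members and 18.3% of all genes had an unadjusted p under 0.05 in edgeR. These were Gsdmd, at -1.50 ± 0.52 on the log2 scale (adjusted p = 0.156 in edgeR), and Nod2, at -2.11 ± 0.78 (adjusted p = 0.167 in edgeR). For CYP1B1-/- it was 0 members and 2.30% of all genes. DESeq2 called 1 member beside 1236 of 16639 genes and limma voom 5 beside 5042 in the AhR-/- interaction, and both called 0 in that of CYP1B1-/-. By edgeR, a state effect that differed between WT and AhR-/- was thus not called for any member.

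Among the peptidoglycan sensors, Nod2 went from near the floor at steady state to a few CPM after HDM. It was at 0.112 to 0.790 CPM in the 10 naive libraries. After HDM the WT libraries 1 to 4 held 5.36, 3.11, 3.88 and 4.58 CPM, the AhR-/- libraries 1.58, 1.24, 0.910 and 0.883, and the CYP1B1-/- libraries 3.48, 1.17, 5.66 and 4.17. The AhR-/- libraries were all below WT, and CYP1B1-/- replicate 2 fell among them. Nod2 had the lowest p of the 10 members in AhR-/- against WT after HDM, a log2 fold change of -1.83 ± 0.41 (SE; adjusted p = 0.0261 in edgeR's quasi-likelihood test). Passing the joint filter through its HDM libraries, it rose with HDM by 3.65 ± 0.53 on the log2 scale in WT and by 2.93 ± 0.57 in CYP1B1-/- (adjusted p of 1.87e-05 and 0.000358 in edgeR). In AhR-/- the value was 1.55 ± 0.58 (adjusted p = 0.0616; 0.0218 in DESeq2 and 0.0305 in limma voom), with all 4 HDM libraries above the 3 naive ones. In AhR-/- replicates 3 and 4, Nod2 rests on 2 and 5 counts.

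Nod1, the more widely expressed sensor, did not pass in any comparison in edgeR's quasi-likelihood test, while limma voom called it lower with HDM in WT and AhR-/- (adjusted p of 0.0327 and 0.0208). After HDM it was at 12.8, 9.58, 4.97 and 8.72 CPM in WT, at 10.5, 12.9, 4.55 and 5.12 in AhR-/- and at 15.0, 15.8, 11.0 and 9.71 in CYP1B1-/-. The 3 groups overlapped, with AhR-/- replicates 3 and 4 and WT replicate 3 at the bottom. Its log2 fold change between AhR-/- and WT lay above 0 when AhR-/- replicates 3 and 4 were left out, at 0.29. Its naive range was 9.26 to 22.8 CPM.

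Ripk2 moved opposite to Nod2 with HDM. It was at 22.2 to 37.0 CPM in the naive WT libraries and at 14.9, 15.5, 12.9 and 12.5 CPM after HDM, which did not overlap. The log2 fold change was -1.08 ± 0.33 in WT and -1.68 ± 0.35 in CYP1B1-/- (SE; adjusted p of 0.0120 and 0.000668 in edgeR), so Ripk2 fell in both, in WT not without naive replicate 4 (-0.87, adjusted p = 0.0554). In AhR-/- it was -0.50 ± 0.35 (adjusted p = 0.331), with naive values of 32.7, 28.6 and 18.9 CPM and HDM values of 19.0, 17.0, 19.6 and 23.1. These 4 AhR-/- values lay above all 4 of WT, whereas the CYP1B1-/- libraries held 7.70, 11.4, 15.1 and 20.6 CPM. Limma voom called Ripk2 higher in AhR-/- than in WT, at 0.73 on the log2 scale (adjusted p = 0.0102), and no other alternative run did. Among the naive libraries CYP1B1-/- replicate 2 was highest, at 70.4 CPM of Ripk2 and also at 22.8 CPM of Nod1.

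NLRP3, the sensor of membrane damage and ion efflux, was among the weakest of the 10. After HDM, Nlrp3 was at 2.64, 1.55, 1.86 and 2.45 CPM in WT, at 1.28, 1.50, 0.455 and 0.883 in AhR-/- and at 1.47, 0.585, 3.95 and 2.99 in CYP1B1-/-. The AhR-/- values were all below WT, and the lowest of them is 1 count. Nlrp3, which also entered the joint fit through its HDM libraries, rose with HDM in WT by 2.29 ± 0.55 and in CYP1B1-/- by 2.58 ± 0.62 on the log2 scale (SE; adjusted p of 0.00195 and 0.00228 in edgeR), and the AhR-/- value was 1.50 ± 0.62 (adjusted p = 0.0887, with 0.0385 in DESeq2 and 0.0428 in limma voom).

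NAIP5 binds flagellin and NAIP2 the inner rod of bacterial type III secretion systems, and both hand the signal to NLRC4. Naip2 was at 9.93, 3.37, 18.3 and 14.4 CPM in the WT HDM libraries, at 1.62, 3.97, 0.910 and 0.883 in AhR-/- and at 6.78, 0.877, 24.9 and 13.1 in CYP1B1-/-. AhR-/- replicate 2 overlapped with WT replicate 2, the other AhR-/- libraries were below WT, and CYP1B1-/- spanned both ranges. Naip2 had the largest fold change of the 10 between AhR-/- and WT, -2.52 ± 0.73 on the log2 scale (adjusted p = 0.0344 in edgeR). Naip5 was at 9.46, 3.62, 16.6 and 9.81 CPM in WT, at 5.55, 1.50, 0.455 and 1.06 in AhR-/- and at 6.05, 2.05, 11.8 and 11.2 in CYP1B1-/-. AhR-/- replicate 1 exceeded WT replicate 2, and the log2 fold change of Naip5 was -2.02 ± 0.59 (adjusted p = 0.0351 in edgeR).

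With HDM, Naip2 rose in WT by 3.83 ± 0.81 and in CYP1B1-/- by 3.72 ± 0.91 on the log2 scale, and Naip5 by 3.63 ± 0.59 and 3.54 ± 0.67. Naip5 also rose in AhR-/-, by 2.44 ± 0.68 (adjusted p = 0.0144 in edgeR), although the lowest HDM library, at 1 count, fell among the naive ones. Without AhR-/- HDM replicate 1, the highest at 5.55 CPM, the value was 1.36 (adjusted p = 0.185 in edgeR), and the call was also lost without AhR-/- naive replicate 1 or 4 (adjusted p of 0.0550 and 0.0777) and in limma voom (adjusted p = 0.132). Naip2 in AhR-/- was 1.66 ± 0.91 (adjusted p = 0.206). Nlrc4 was at 4.99, 2.85, 5.28 and 4.46 CPM in the WT HDM libraries, at 2.30, 2.03, 0.455 and 1.24 in AhR-/- and at 3.67, 2.63, 9.04 and 5.04 in CYP1B1-/-, so AhR-/- lay below both other genotypes without overlap. Its log2 fold change in AhR-/- against WT was -1.42 ± 0.40 (adjusted p = 0.0313 in edgeR). With HDM, Nlrc4 was at 0.99 ± 0.38 in WT (adjusted p = 0.0430, and between 0.0583 and 0.120 without WT HDM replicate 1, 3 or 4 or WT naive replicate 1, 3 or 4), 1.89 ± 0.43 in CYP1B1-/- (adjusted p = 0.00142) and 0.06 ± 0.43 in AhR-/- (adjusted p = 0.943).

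The adaptor and the caspase come next in the cascade. Pycard was at 39.2, 10.1, 46.9 and 30.3 CPM in the WT HDM libraries, at 21.6, 16.2, 6.37 and 11.3 in AhR-/- and at 16.9, 8.77, 44.8 and 38.9 in CYP1B1-/-. Casp1 was at 30.4, 8.54, 37.7 and 18.3 CPM in WT, at 14.1, 9.70, 1.37 and 1.77 in AhR-/- and at 12.5, 3.51, 45.2 and 39.2 in CYP1B1-/-. For both genes WT replicate 2 fell among the AhR-/- libraries, and neither passed between these genotypes in edgeR's quasi-likelihood test. Limma voom called both lower (adjusted p of 0.0161 for Pycard and 0.0293 for Casp1), and DESeq2 and edgeR's likelihood ratio test called Casp1 (adjusted p of 0.0400 and 0.0476). Casp1, which passed the joint filter through its HDM libraries, rose with HDM by 4.90 ± 0.81 in WT, 4.74 ± 0.99 in AhR-/- and 5.65 ± 0.96 in CYP1B1-/- on the log2 scale (adjusted p of 7.14e-05, 0.00290 and 0.000131 in edgeR), from 0.167 to 1.88 CPM in the naive libraries. Pycard rose by 2.89 ± 0.47, 1.92 ± 0.51 and 2.85 ± 0.53 (adjusted p of 5.35e-05, 0.0113 and 0.000235 in edgeR), and in AhR-/- its adjusted p was 0.0602 without naive replicate 1 and 0.0519 without naive replicate 3.

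Gsdmd was at 67.2, 25.9, 70.0 and 42.6 CPM in the WT HDM libraries, at 24.4, 24.9, 11.4 and 10.4 in AhR-/- and at 32.3, 20.8, 76.6 and 60.4 in CYP1B1-/-. AhR-/- lay below WT without overlap, and AhR-/- replicates 3 and 4 were below the naive range of 12.2 to 16.3. The log2 fold change of AhR-/- against WT was -1.49 ± 0.37 (adjusted p = 0.0267 in edgeR). With HDM, Gsdmd rose in WT by 1.79 ± 0.36 and in CYP1B1-/- by 1.57 ± 0.40 (adjusted p of 0.000423 and 0.00352 in edgeR), and the AhR-/- value was 0.29 ± 0.39 (adjusted p = 0.642). Per kilobase, Gsdmd was the highest of the 10 in WT after HDM at 21.6 ± 8.84 CPM per kb (SD, n = 4), followed by Casp1 at 15.9 ± 8.63, Pycard at 8.32 ± 4.17 and Ripk2 at 4.95 ± 0.535, and each of these overlapped with its neighbour. The limit on exon lengths given for steady state applies to this order too.

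**Figure D2:**
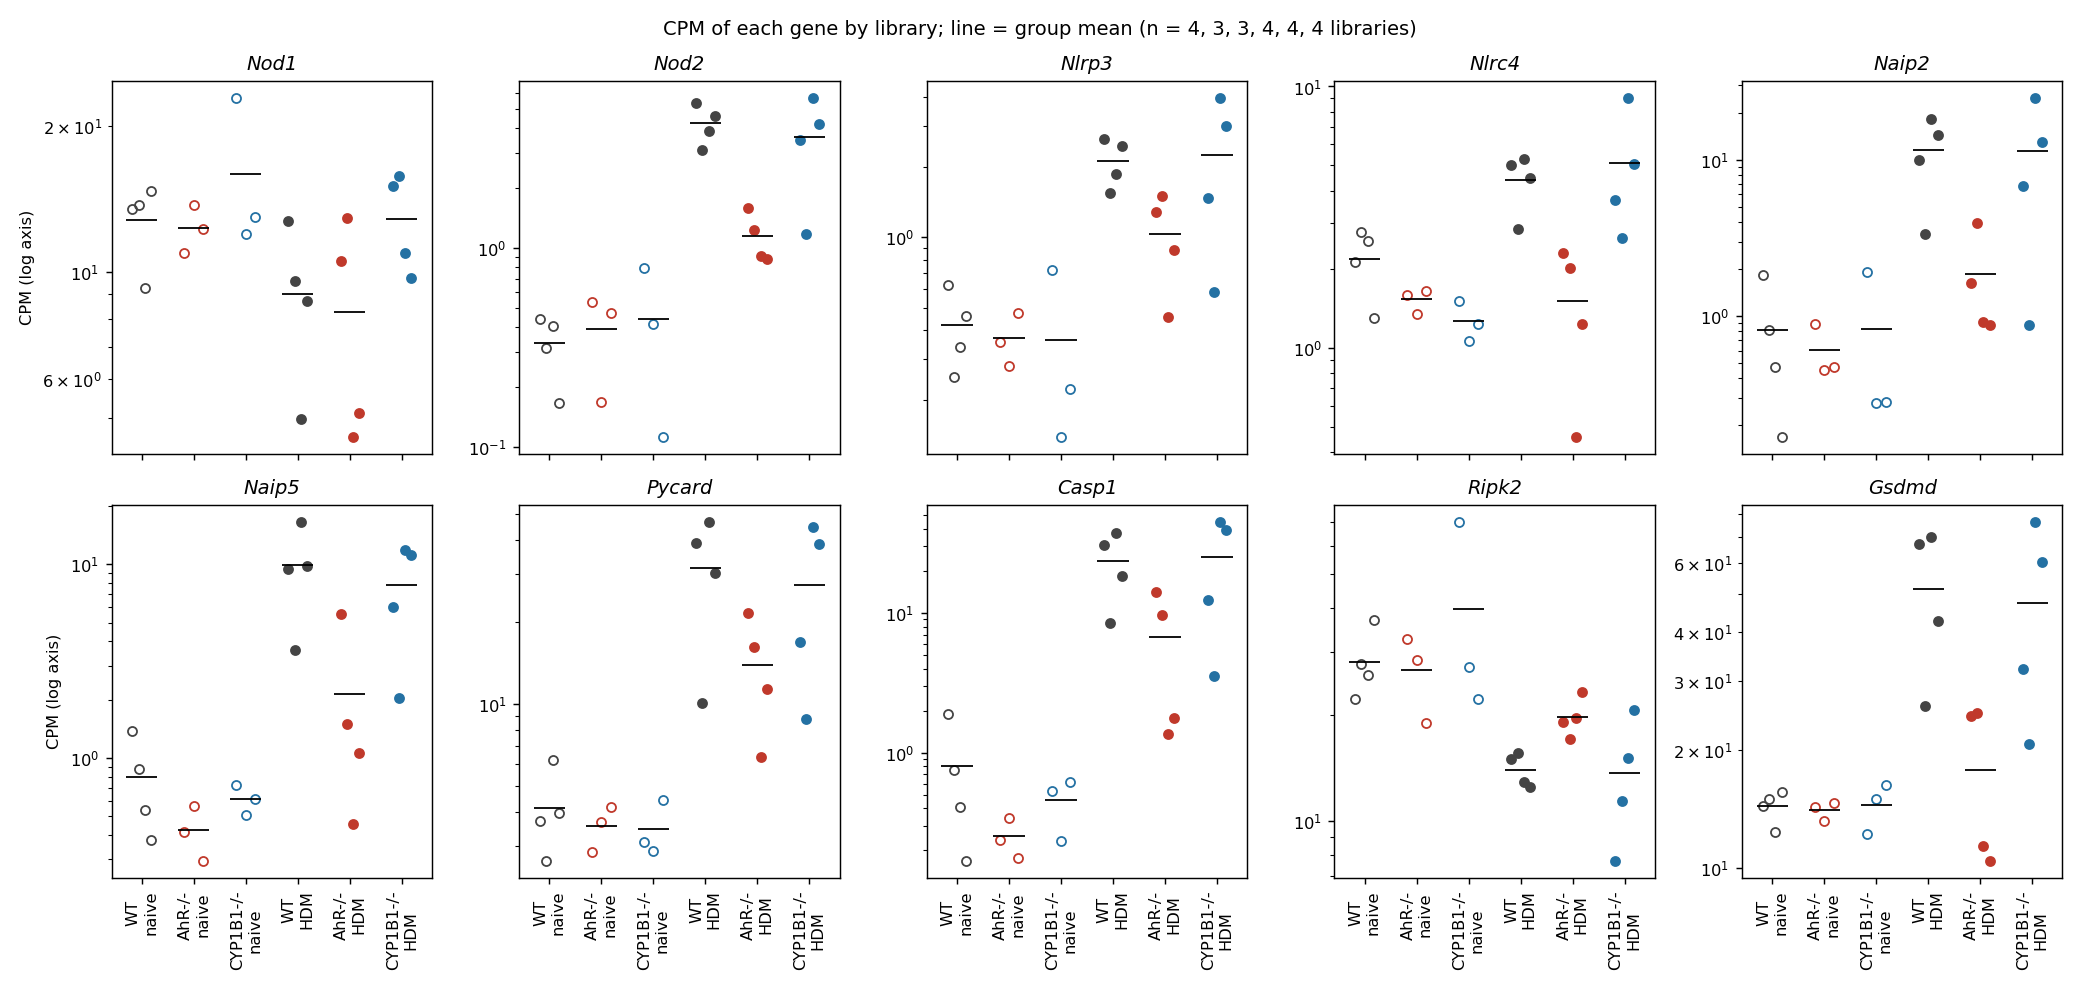
CPM of each of the 10 genes (vertical axis, logarithmic) in the 22 libraries by group (horizontal axis), open points naive and filled points HDM, with a line at the group mean. Ripk2 and Nod1 are the genes whose HDM means lie below the naive means in all 3 genotypes, and the AhR-/- HDM points of Nod2, Nlrp3, Nlrc4 and Gsdmd lie below all WT HDM points.

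The other genes of the pathway were read in AhR-/- against WT after HDM from 3 lists. Of 13 further NOD-like receptor genes, 9 were tested, 6 were lower and 0 higher, with a median log2 fold change of -1.87. Nlrp1a at -2.69 ± 0.49, Nlrp1b at -2.70 ± 0.60, Nlrc5 at -2.21 ± 0.49 and Ciita at -3.25 ± 0.81 (SE; adjusted p between 0.0261 and 0.0268 in edgeR) fell. NLRP1 proteins form inflammasomes of their own, whereas NLRC5 and CIITA are the transactivators of MHC class I and class II genes. Nlrx1 at -1.21 ± 0.44, Nlrc3 at -0.67 ± 0.62 and Nlrp12 at 0.63 ± 1.16 did not pass. Of 16 other inflammasome genes, all tested, 4 were lower and 0 higher, with a median of -0.92: Mefv, which encodes pyrin, at -2.62 ± 0.63, Card9, an adaptor of C-type lectin receptors, at -2.37 ± 0.62, the DNA sensor Aim2 at -2.09 ± 0.65 and the caspase Casp8 at -1.07 ± 0.36. The cytokine gene Il1a at 1.88 ± 0.87, the ATP-gated channel P2rx7 at -1.51 ± 0.58 and the gasdermin Gsdme at -1.12 ± 0.41 did not pass.

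Of 28 genes of NOD1 and NOD2 signalling, 27 were tested, 7 were lower and 0 higher, with a median of -0.62. Slc15a3, a transporter of muramyl dipeptide, was at -2.50 ± 0.63, Rbck1 and Rnf31, subunits of the linear ubiquitin ligase, at -1.43 ± 0.37 and -1.23 ± 0.32, and Tnfaip3, the deubiquitinase A20, at -1.65 ± 0.44 (log2 fold change, SE; adjusted p between 0.0268 and 0.0285 in edgeR). Nfkb1 at -1.26 ± 0.44, Birc3 at -1.22 ± 0.53 and Traf6 at -0.91 ± 0.33 did not pass. These shares, 6 of 9, 4 of 16 and 7 of 27, stand beside 12.9% of all genes called lower. In CYP1B1-/- against WT, 0 genes of the 3 lists passed. With HDM in WT, 6 of 11 tested further receptor genes were higher and 0 lower, 8 of 16 other inflammasome genes were higher and 1 lower, and 8 of 28 NOD signalling genes were higher and 1 lower, beside 19.0% of all genes higher and 19.4% lower. In AhR-/- these were 4 and 0, 5 and 0, and 6 and 3, beside 10.6% and 10.1%. The counts hold 1 gene of each list, Nlrp10, Il1a and Slc15a3, that was under the filter in the naive table and entered the joint fit through the HDM libraries; they are named for that reason, after their values were seen. Without them the higher genes were 5 of 10, 8 of 15 and 7 of 27 in WT and 4, 4 and 5 in AhR-/-, and the lower ones were as before.

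Markers of hematopoietic cells moved with the same libraries. Of 20 such markers, 13 were lower in AhR-/- than in WT after HDM, 0 were higher and the median log2 fold change was -2.45. Their summed CPM was 3240 to 10604 in the WT HDM libraries, 397 to 2360 in AhR-/-, 611 to 10624 in CYP1B1-/- and 108 to 522 in all naive libraries, and 0 of the 20 were at 0 in any library. Ptprc was at 457.4, 213.6, 650.0 and 367.4 CPM in the WT HDM libraries, at 169.5, 101.9, 27.8 and 14.8 in AhR-/- and at 182.1, 26.6, 633.5 and 710.3 in CYP1B1-/-. CYP1B1-/- replicate 2 was thus low in Ptprc and was also the lowest of its group for Nod2, Nlrp3, Nlrc4, Naip2, Naip5, Pycard, Casp1 and Gsdmd, and WT replicate 2 was the lowest of WT for all of these 8 as well as for Ptprc. Other markers moved too. The sum of the 7 epithelial markers was 1321 to 2375 CPM in the AhR-/- HDM libraries and 610 to 1339 in WT, with 2 of 7 higher and 0 lower, and that of 6 markers of alveolar type 1 cells was 3229 to 18562 against 604 to 4585 CPM, with 0 of 6 past the threshold in edgeR and 4 at an unadjusted p under 0.05. Of 10 macrophage markers 9 were tested and 1, Itgax, was lower, with log2 fold changes from -2.98 to 2.59, and their sum was 140 to 4897 CPM in AhR-/- and 441 to 1082 in WT, with at most 2 of them at 0 in a library. Of 4 club cell markers 1 was higher (sums of 1685 to 8498 CPM in AhR-/- and 196 to 1862 in WT), of 6 ciliated cell markers 1 was higher (128 to 199 against 57.8 to 121.9 CPM), of 8 T and NK cell markers 2 were lower (6.83 to 64.0 against 37.0 to 106.1 CPM), and of 7 granulocyte markers tested 1 was lower. Of the markers of alveolar type 2, B, endothelial and mesenchymal cells 0 passed in edgeR, with 0, 0, 2 and 1 at an unadjusted p under 0.05. Among the naive libraries WT replicate 1 was highest for Ptprc, at 55.2 CPM, and for Casp1, at 1.88 CPM. Which cells the reads of these genes came from was not tested.

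Over the 12 HDM libraries the correlation of log2 CPM with the mean log2 CPM of the 20 markers was 0.98 for Casp1, 0.96 for Gsdmd, 0.95 for Naip2, 0.94 for Nod2, 0.93 for Nlrp3 and Naip5, 0.90 for Pycard and 0.88 for Nlrc4 (Pearson's r). It was 0.24 for Nod1 and -0.27 for Ripk2. Spearman's rho was between 0.87 and 0.98 for the 8 genes, and -0.01 for Nod1 and -0.31 for Ripk2. The points share their library, its depth and its genotype, so these values describe the 12 libraries. Over the 10 naive libraries r with the markers was 0.86 for Casp1 and Naip5 and 0.84 for Naip2, but 0.40 for Nod2, 0.36 for Nlrp3, 0.59 for Nlrc4, 0.13 for Nod1, -0.0066 for Ripk2, -0.17 for Gsdmd and -0.31 for Pycard. Among the 8 genes themselves r over the HDM libraries was between 0.81 and 0.97 over the 28 pairs, while Nod1 and Ripk2 had r between -0.41 and 0.46 with them. With the marker mean as a covariate, 0 members and 0 of 14161 genes passed in AhR-/- against WT after HDM, where 3129 genes passed without it, and the 5 genes called without it lay between -1.16 and -0.49 on the log2 scale, with adjusted p of 0.499 to 0.668 in edgeR. With the covariate 0 members passed between HDM and naive libraries in any genotype, and of all genes 8 passed in WT, 496 in AhR-/- and 22 in CYP1B1-/-, against 6391, 3435 and 5560 without it.

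**Figure D3:**
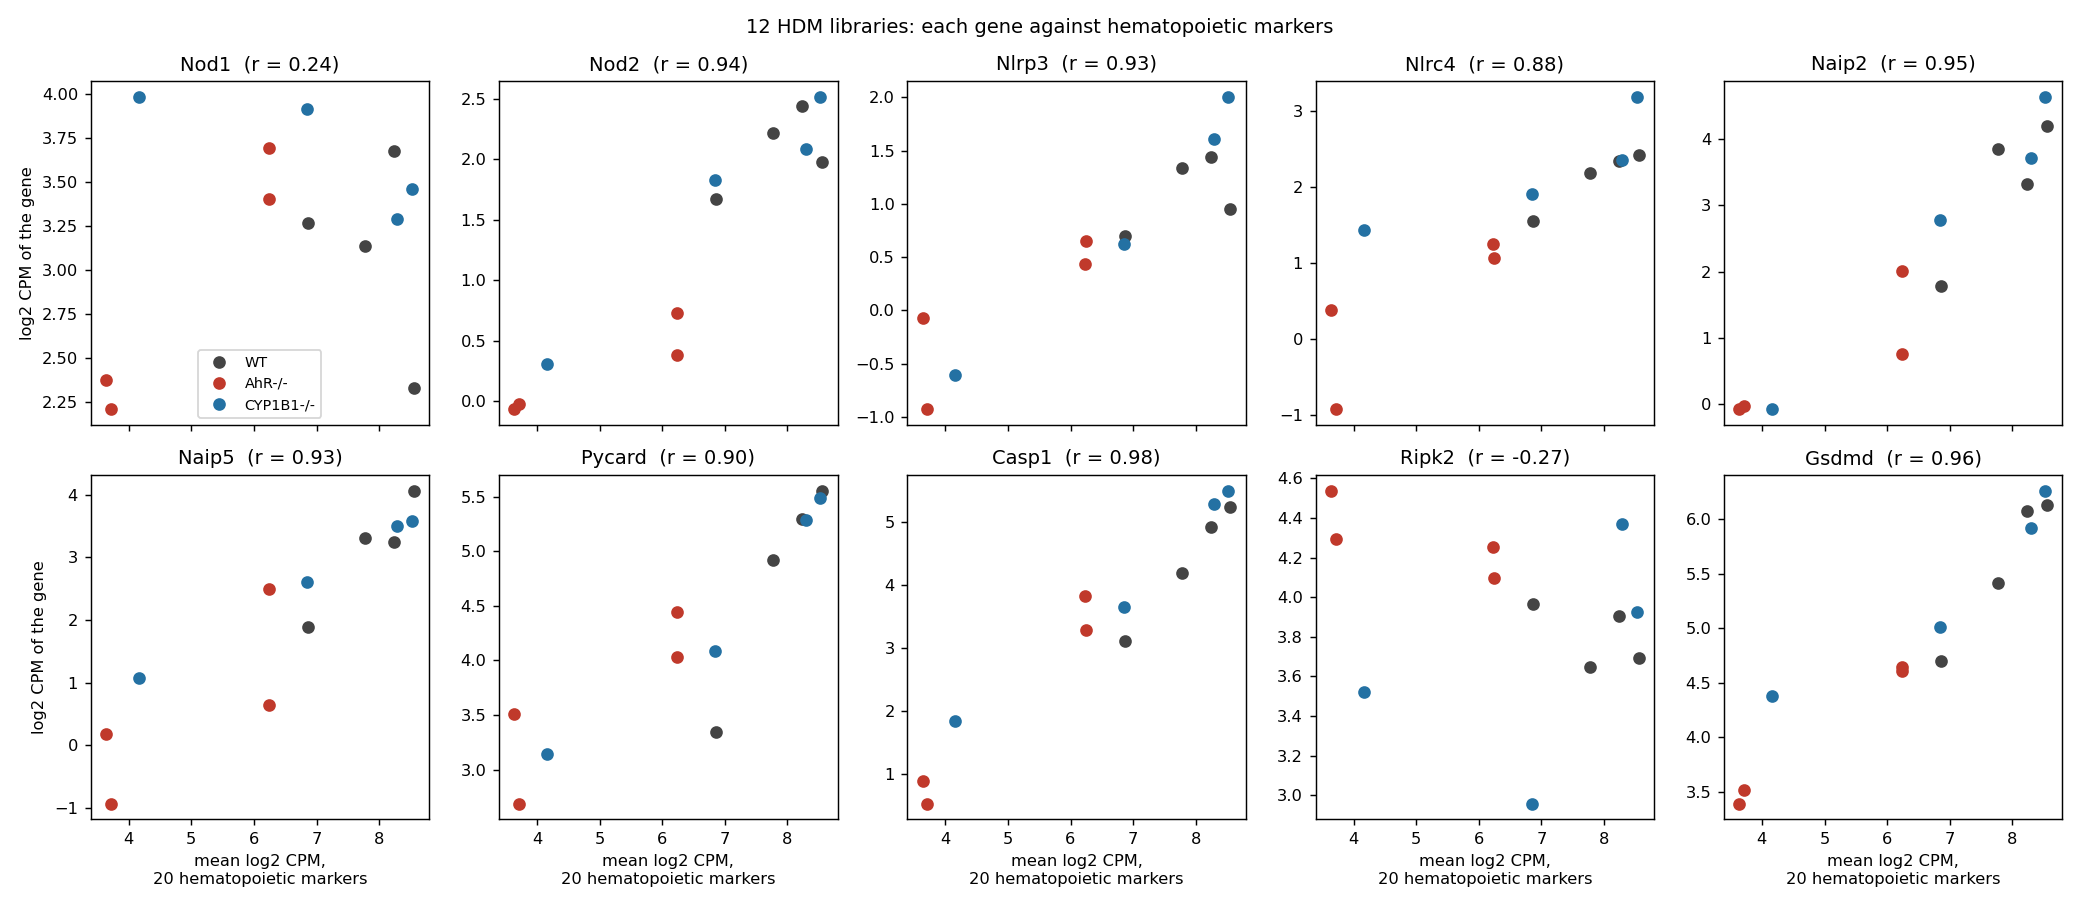
Log2 CPM of each of the 10 genes (vertical axes) against the mean log2 CPM of 20 hematopoietic markers (horizontal axis) in the 12 HDM libraries, coloured by genotype, with Pearson's r in each title. Points of Casp1, Gsdmd, Naip2 and Nod2 follow the markers across genotypes (r of 0.98, 0.96, 0.95 and 0.94), those of Nod1 and Ripk2 do not.

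The genes with the most similar levels were named for the members other than Naip2 as the 3 highest Pearson's r of log2 CPM over all 22 libraries, which share state and sequencing table. For Casp1 these were Epsti1, Hcls1 and Ppp2r1b (r of 0.99), Hcls1 being 1 of the 20 hematopoietic markers. For Nod2 they were Nlrp1b, Haspin and Ppfia4 (0.97 to 0.98), and for Nlrp3 Impa2, Gpr132 and Cd8a (0.96), Cd8a being 1 of the 8 T and NK cell markers. Naip5 was closest to Kit, Cenpe and Sulf2 (0.98). Nlrc4 was closest to the DNA repair genes Rad54l, Exo1 and Blm (0.93). Pycard was closest to Hddc2, Tagap and Olfm1 (0.97), and Gsdmd to Aldh9a1, Bzw2 and the replication helicase gene Mcm7 (0.98). Ripk2 was closest to Pithd1, Ubxn2a and Slc30a9 (0.95 to 0.97), and Nod1 to Hip1r, the surfactant lipid transporter gene Abca3, 1 of the 8 alveolar type 2 markers, and Mfsd6l (0.83 to 0.84). Within the 12 HDM libraries the genes named here had r of 0.83 to 0.98 with their member.

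**Figure D4:**
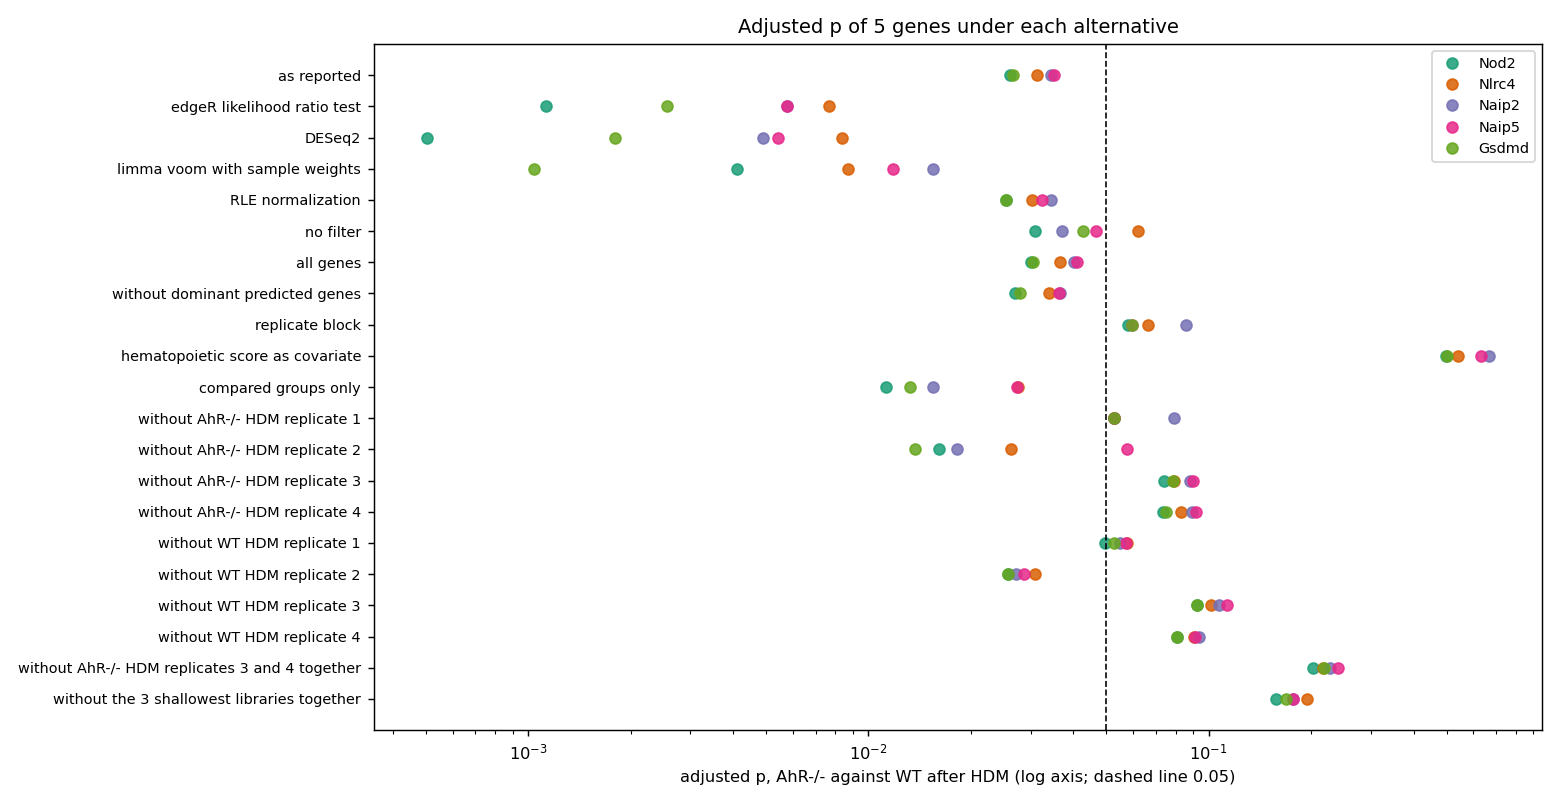
Adjusted p of Nod2, Nlrc4, Naip2, Naip5 and Gsdmd in AhR-/- against WT after HDM (horizontal axis, logarithmic; dashed line 0.05) as reported and under each of 20 alternatives (rows). All 5 points lie left of the line with other tests and scalings and right of it with the replicate block, the hematopoietic covariate and without AhR-/- replicate 1, 3 or 4 or WT replicate 3 or 4; without a filter Nlrc4 lies right of it.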

How the data were processed

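Lung ECs were sorted from enzyme-digested lungs and sequenced in 22 libraries. The authors deposited raw counts of reads per Ensembl gene, 1 table for naive and 1 for HDM libraries, made with bcl2fastq 2.19.1, GSNAP and featureCounts 2.0.0 per the submitters' processing notes, on mm10. Strand and multi-mapping settings are not given in the sources used here. Every column matched a sample (0 unmapped). Of the 54373 gene IDs, 54147 matched the GENCODE M21 annotation, and protein-coding genes were tested. Low genes were removed by filterByExpr (at least 10 counts, total of 15), libraries were scaled by TMM and genes were tested with edgeR 4.0.16 (R 4.3.3) by quasi-likelihood, all groups of a table in 1 fit, both tables in 1 fit for HDM against naive, with Benjamini-Hochberg adjustment over all genes tested and a threshold of 0.05. The SE was derived from the F statistic as the size of the log2 fold change over its square root. CPM used TMM sizes over all 22 libraries, and log2 CPM a prior count of 1. The log2 fold changes of edgeR used its default prior count.

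The 10 genes and all lists were chosen with earlier results of these data known. All 10 were counted in every comparison except the 3 at steady state, where 7 passed the filter. Of each pathway list, the genes named were the 4 with the lowest p past the threshold in AhR-/- against WT after HDM and the 3 not past it with the largest change. Alternatives were DESeq2 1.42.0, limma 3.58.1 (voom), edgeR's likelihood ratio test, other scalings, filters and gene sets, a hematopoietic covariate, a replicate block and libraries left out. The genes most similar to Naip2 are not reported here. The scripts were tested on simulated data. In 30 pairs of libraries within groups the chi-square per degree of freedom was at least 7.98, so none was counted as a duplicate.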

Additional observations from a re-analysis of the deposited data

How the results depend on the processing

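The count of members called in AhR-/- against WT after HDM was 5, and ranged from 0 to 6 when single libraries were left out (0 without AhR-/- replicate 1, 3 or 4 or WT replicate 3 or 4). It was 8 with limma voom, which called 6669 of 14161 genes against 3129, and 0 (with 0 genes in all) with the hematopoietic covariate, without AhR-/- replicates 3 and 4 together, and without the 3 shallowest libraries together, an alternative chosen after seeing the data. With the replicate number as a block it was 0, with adjusted p of 0.058 to 0.0859 in edgeR. The labels do not say whether the numbers pair the samples. Deviations of same-numbered libraries correlated over 0.1 in 4 of 12 HDM pairs and 3 of 8 naive pairs. Those of differently numbered libraries did in 18 of 36 and 4 of 25. These counts do not decide whether the samples were paired. The block left the count within 1.5 times in the other comparisons. AhR-/- against CYP1B1-/- after HDM went from 0 to 5 with the likelihood ratio test, 6 with DESeq2, 7 with limma voom, and 0 to 6 with a library left out. HDM against naive gave 0 in each genotype with the covariate; in WT it was 7 to 9 with a library left out, in CYP1B1-/- 9 throughout, and in AhR-/- 1 to 4 (1 without naive replicate 1), or 5 with DESeq2 and 5 with limma voom. The AhR-/- interaction gave 1 with DESeq2, 5 with limma voom and 0 to 1 with a library left out (1 without AhR-/- HDM replicate 2). CYP1B1-/- against WT, the naive comparisons and the CYP1B1-/- interaction stayed at 0 in all alternatives run. The cause of these moves was not tested.

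Signs of single genes were followed for the 10 members in AhR-/- against WT after HDM and in the 3 comparisons of HDM with naive, where a log2 fold change turned sign in 22 cases. In AhR-/- against WT after HDM, Nod1 was at 0.023 without AhR-/- replicate 3, 0.052 without replicate 4 (-0.40 to 0.052 over all libraries left out in turn), 0.29 without both and 0.50 without the 3 shallowest libraries, and with the covariate Pycard was at 0.15 and Casp1 at 0.38. In HDM against naive with the covariate, WT had Nlrc4 at -0.66, Naip2 at -1.16 and Casp1 at -0.027, AhR-/- had Nlrc4 at -1.16, Naip2 at -2.37, Naip5 at -0.17 and Gsdmd at -0.81, and CYP1B1-/- had Naip2 at -2.09, Naip5 at -0.20, Casp1 at -0.28 and Gsdmd at -0.080. In AhR-/-, Nlrc4 was also at -0.31 and Gsdmd at -0.15 with limma voom, and Nlrc4 at -0.17 without HDM replicate 1 and -0.032 without naive replicate 3 (-0.17 to 0.30 over all left out in turn). Nod1 in CYP1B1-/- was at 0.10 without naive replicate 2 (-0.62 to 0.10 in turn). The median of all genes in HDM against naive moved from -0.11 to 0.011 in WT and from -0.021 to 0.12 in CYP1B1-/- when all genes were scaled and tested. At the shallowest HDM library 3 counts are 1.37 CPM, above its values of Nod2, Nlrp3, Nlrc4, Naip2 and Naip5.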
